A study of Rattus norvegicus with 10 samples.

Results

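Regions bound by both SOX9 and SOX6 that carried acetylated, H3K4me1-marked chromatin and no called H3K4me3 were described in RCS cells. They are the SOX9 peaks that overlap, by 1 bp or more, a SOX6 peak, an H3K27ac interval and an H3K4me1 interval, and overlap no H3K4me3 interval. This rule selected 4007 of 14782 SOX9 peaks, or 27.1%, and they are called shared active distal sites below. RCS cells are a line from a rat chondrosarcoma, a cartilage tumour, and the labels name no treatment and no other cell type. Chromatin immunoprecipitation with sequencing (ChIP-seq) gave 1 library per antibody, against both factors and against the histone marks H3K4me1, H3K27ac, H3K9me3 and H3K4me3. A further 4 libraries are inputs, sequenced without an antibody, with 1 input serving the 3 methylation marks.

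SOX9 directs the formation of cartilage cells, and SOX6 is a partner factor of the same family that acts with SOX9 in these cells. Both bind DNA through a high-mobility-group domain, a fold that sits in the minor groove and bends the helix. Enhancers, which raise the transcription of genes at a distance, usually carry H3K4me1 and, when active, H3K27ac. H3K4me3 is concentrated at promoters and H3K9me3 at silenced chromatin. The series set out to compare where the SOX factors bind and how this relates to large enhancer regions.

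All values come from called peaks in single libraries, so none has a replicate error. Intervals are 95% counting intervals (Wilson for shares, order statistics for medians, Newcombe for differences). They cover counting error only, and neighbouring sites are not independent of each other. The sites were selected on the called peaks of SOX9, SOX6, H3K27ac, H3K4me1 and H3K4me3, so values from these 5 lists are descriptions without a test. The authors' peak score has no stated scale, and in the histone lists many intervals share the value 3100 (9333 of 50834 for H3K27ac). A score is therefore given with its percentile, the rank of the peak within its own list. The inputs held 36873004 to 131858579 reads, of which 53.4% to 53.5% aligned.

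The sites made up most of the shared SOX9 peaks outside H3K4me3. Of the 8329 SOX9 peaks that overlapped SOX6, 7794 also overlapped H3K27ac and 6955 overlapped both H3K27ac and H3K4me1. Without H3K4me3 this left the 4007 sites, which are 48.1% of the shared peaks. The remaining 2948 overlapped H3K4me3 as well and serve below as shared promoter-type sites, a name for their marks only. A second group for comparison holds the 1773 SOX9 peaks with H3K27ac and H3K4me1, without H3K4me3 and without a SOX6 peak, called SOX9-only below.

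SOX9 and SOX6 peaks at the sites lay almost on top of each other. A single SOX6 peak overlapped 3932 of the 4007 sites, a pair overlapped 72, and 3 overlapped the other 3. The median distance between the midpoints of the SOX9 peak and the nearest overlapping SOX6 peak was 47 bp (45 to 49 bp), with quartiles of 16 and 97 bp. Midpoints were no more than 200 bp apart at 92.7% of sites and over 500 bp apart at 17 sites. The rule requires an overlap, so the widths of both peaks bound this distance, and few large distances follow in part from it. Median widths at the sites were 605 bp for SOX9 and 566 bp for SOX6. The median distance was 75 bp (71 to 80 bp) at shared promoter-type sites, where SOX9 peaks were wider, with a median of 861 bp. The deposited lists hold no summits, so midpoints stand in for the point of binding.

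Overlaps near the 1 bp limit were rare. The overlap had a median of 503 bp, and at 27 sites it was under 50% of the narrower peak. The smallest overlap, 22 bp, was at a SOX9 peak on chromosome 13 from 74739879 to 74740854 (rn5 here and below). The next had 26 bp on chromosome 1 from 194158884 to 194159403, and 42 bp on chromosome 15 from 18502763 to 18503048. The other 2 of the 5 smallest had 46 bp on chromosome 1 from 233494881 to 233495211 and 52 bp on chromosome 6 from 115409789 to 115410068. The highest-ranked of these 5 SOX9 peaks stood at percentile 50.2 of its list.

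Just outside the rule, a SOX9 peak on chromosome 15 from 87860797 to 87861047 missed a SOX6 peak by 5 bp, and that SOX6 peak had a score of 325. Others were 10 bp away on chromosome 6 from 2737600 to 2737862 and 13 bp away on chromosome 15 from 22769417 to 22769846. A further 2 were 13 bp away on chromosome 15 from 54322266 to 54322710 and 23 bp away on chromosome 2 from 11469995 to 11470437. Of the 1773 SOX9-only peaks, 199 lay within 500 bp of a SOX6 peak. Over all of that group the median gap to SOX6 was 15800 bp.

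The peaks of both factors at the sites ranked high in their lists. The median score was 162 for SOX9 (percentile 70.6) and 208 for the overlapping SOX6 peak (percentile 73.1). SOX9-only peaks had a median score of 73.3 (percentile 38.8), and shared promoter-type sites had a median of 173 (percentile 72.5), close to the sites. Both factors stood above the middle of their lists at 60.04% of sites, and both below it at 10.01%. At 399 sites both were above percentile 90. The rule accepted 8.28% of the SOX9 peaks in the lowest decile of the list by score, 47.2% in the ninth and 46.5% in the highest. Of only those SOX9 peaks that overlapped SOX6, it accepted 45.2%, 51.7% and 47.0% in the same deciles, within 35.2% to 54.8% over all deciles.

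Agreement between the ranks of the factors was moderate. Across the 4007 sites the score of SOX9 and that of SOX6 had a Spearman correlation of 0.477, against 0.525 across the 2948 shared promoter-type sites. These correlations are across sites within a single pair of libraries, and all points share depth and chromatin. At 143 sites SOX9 stood over 50 percentile points above SOX6, and at 215 sites SOX6 stood that far above SOX9.

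**Figure D1:**
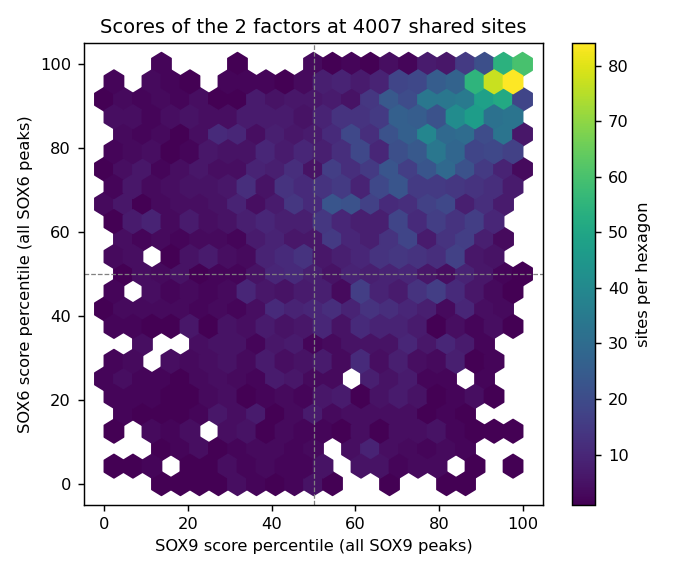
Score percentile of the SOX9 peak (horizontal axis, within all SOX9 peaks) against that of the highest-scoring overlapping SOX6 peak (vertical axis, within all SOX6 peaks) at the 4007 sites, with colour for the number of sites per hexagon and dashed lines at percentile 50. Sites gather in the upper right corner, where 399 sites exceed percentile 90 in both lists, and thin out toward the lower left, where 10.01% lie below 50 in both.

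The 10 sites with the highest scores for both factors, ordered by the lower of the 2 percentiles, lay on 7 chromosomes. First was chromosome 4 from 26336113 to 26337537, where SOX9, SOX6 and H3K27ac all had a score of 3100 and H3K4me1 had 1566. Its midpoints were 9 bp apart, the nearest H3K4me3 interval was 39088 bp away and the next site 281178 bp away, so it stood alone. The second, on chromosome 7 from 37326806 to 37328163, was also far from H3K4me3, at 259392 bp, but it lay in a 6232 bp H3K27ac interval inside a large acetylated region.

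The third, on chromosome 9 from 17756196 to 17758426, was 2231 bp wide and was the only 1 of the 10 that overlapped H3K9me3. Its 4 active-site lists (SOX9, SOX6, H3K27ac and H3K4me1) all had a score of 3100. On the same chromosome lay the site from 87531385 to 87533229 and the site from 87566009 to 87567396, in H3K27ac intervals of 2357 and 6285 bp. The latter had another site 1146 bp away and an H3K4me3 interval 3974 bp away, the closest to H3K4me3 among the 10.

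On chromosome 18 the site from 37238494 to 37239573 had midpoints 3 bp apart and scores of 3100 for both factors, with 2450 for H3K27ac and 458 for H3K4me1. The site on chromosome 1 from 191898225 to 191899317 lay in an H3K27ac interval of 22927 bp, the longest among the 10. Chromosome 19 held a pair, from 49145764 to 49146998 and from 49746294 to 49746783. The second of this pair was only 490 bp wide with coincident midpoints (0 bp), and its H3K4me1 interval had a score of 90.6 while H3K27ac had 3100. The last was on chromosome 13 from 48308971 to 48309866, with scores of 2491 for SOX9 and 2467 for SOX6. Thus H3K27ac scored 3100 at 9 of the 10 sites, while H3K4me1 ranged from 90.6 to 3100.

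Both active marks were centred on the sites rather than touching their edges. The rule asked for a 1 bp overlap, and the SOX9 midpoint lay inside an H3K27ac interval at 97.8% of sites (97.3% to 98.2%) and inside an H3K4me1 interval at 94.9% (94.1% to 95.5%), against 78.8% and 65.2% of all SOX9 peaks. The full SOX9 list was not required to overlap either mark. In SOX9-only peaks, which were, the shares were 96.8% and 97.6%. Of the 3938 sites with a single H3K27ac interval, 75.8% had their midpoint in the middle 50% of it, and for H3K4me1 this was 70.6% of 3798. At shared promoter-type sites the values were 80.4% for H3K27ac and 51.7% for H3K4me1. In SOX9-only peaks they were 69.4% and 72.9%, so centred marks are not particular to the sites. An even spread of midpoints inside the interval would put 50% in its middle 50%. The shares above also count midpoints outside the interval, which a 1 bp overlap allows. An even spread over all allowed positions would therefore put less than 50% there. At 2 kb upstream or downstream on the reference strand, 36.2% and 35.3% of positions were inside H3K27ac and 36.0% and 34.5% inside H3K4me1.

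**Figure D2:**
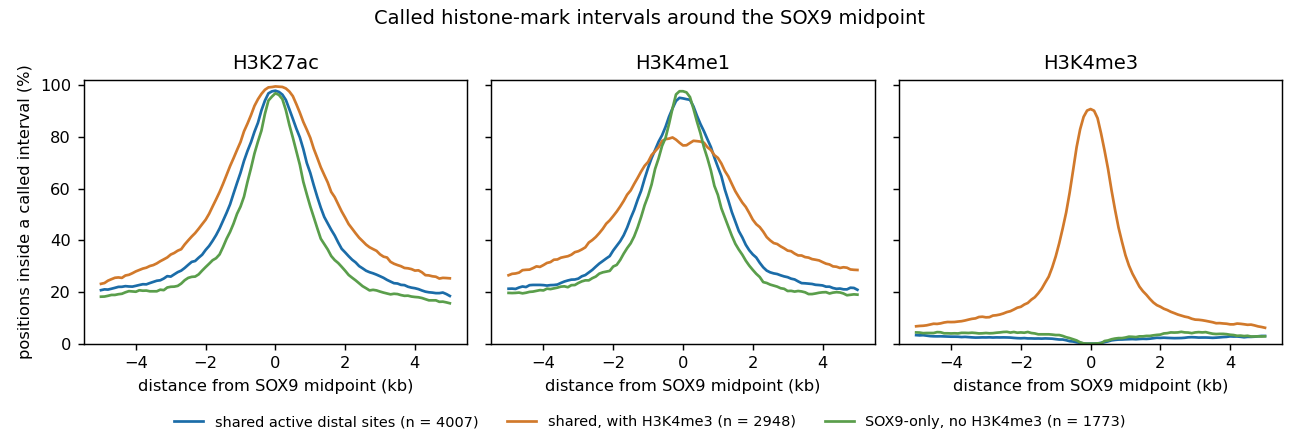
Share of positions (vertical axis, %) inside a called interval of H3K27ac, H3K4me1 or H3K4me3 at each distance from the SOX9 midpoint (horizontal axis, kb), for the 4007 sites, 2948 shared promoter-type sites and 1773 SOX9-only peaks. Both active marks are highest around the midpoint of the sites, with 97.8% and 94.9% there, and H3K4me1 at shared promoter-type sites is lower, at 76.7%; the absence of H3K4me3 at the midpoint of 2 of the groups follows from their definition.

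H3K27ac at the sites was wide and high in its list. The highest-scoring overlapping H3K27ac interval had a median width of 2329 bp and a median percentile of 76.7, and at 42.9% of sites its score was 3100 or more. H3K4me1 had a median width of 2110 bp and stood higher in its own list, at percentile 90.2. In SOX9-only peaks the medians were 1920 bp and percentile 66.0 for H3K27ac and 1895 bp and percentile 86.1 for H3K4me1. Shared promoter-type sites had wider and higher H3K27ac than the sites, with medians of 3363 bp and percentile 90.2. Their H3K4me1 was close to that of the sites, at 2111.5 bp and percentile 89.4. Seen from the mark, the 3598 H3K27ac intervals that held sites and no H3K4me3 had a median width of 2134 bp. The 17627 H3K27ac intervals with H3K4me1, without H3K4me3 and without any SOX peak had 863 bp. A wider interval has more room for a SOX peak, and width was not matched.

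H3K27ac stood higher in its list at the sites in the highest quartile of either factor, while the lower 3 quartiles were close to each other, and H3K4me1 varied little. Sites in the lowest and the highest quartile of the SOX9 list had H3K27ac medians of percentile 68.7 and 90.2, and widths of 1975 and 2860 bp, and in the quartiles between them H3K27ac stood at percentiles 66.1 and 71.5. For H3K4me1 the medians were percentile 89.7 and 91.2. By quartile of the SOX6 list, H3K27ac stood at percentile 71.4 in the lowest and 90.2 in the highest, and H3K4me1 at 88.0 and 91.1. Percentile 90.2 of H3K27ac is the rank of the tied score of 3100. In SOX9-only peaks H3K27ac stood at percentiles 63.9, 62.5, 68.7 and 80.7 from the lowest to the highest SOX9 quartile. A higher rank in the highest SOX9 quartile is therefore not particular to the sites. Shared promoter-type sites stood at percentile 90.2 in every SOX9 quartile.

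The share of sites with the SOX9 midpoint inside H3K4me1 was lower in the highest quartile of SOX9 score than in the lowest. The rule required an overlap with H3K4me1, which a narrow peak can hardly meet with its midpoint outside, and high-scoring peaks were wider, so score, width and the choice of sites cannot be told apart in these shares. In the lowest quartile of the SOX9 list, 330 of 332 sites had their midpoint inside H3K4me1 (99.4%, 97.8% to 99.8%), and in the highest quartile 1557 of 1720 did (90.5%, 89.0% to 91.8%). In the highest decile of the list the share was 83.4% (80.4% to 86.0%) of 687 sites. For H3K27ac the same shares were 99.1%, 98.3% and 98.5%. The median SOX9 width was 429 bp in the lowest quartile and 747.5 bp in the highest. When every overlap had to cover at least 0.5 of the narrower interval, 99.3% of all midpoints were inside H3K4me1. That share is nearly fixed by the setting. Where the SOX9 peak is the narrower interval, such an overlap reaches its midpoint. The share of sites that overlapped 2 or more H3K4me1 intervals was 0.301% in the lowest and 10.6% in the highest quartile (5.22% over all sites, 5.65% of all SOX9 peaks).

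Most midpoints outside H3K4me1 fell in short breaks between H3K4me1 intervals, and the rule itself guarantees an interval on 1 side. There were 206 sites with the midpoint outside H3K4me1, and 150 of them had an H3K4me1 interval within 1 kb on both sides, with a median gap of 406.5 bp (quartiles 210.75 and 648.25 bp). At 166 of the 206 the SOX6 midpoint was outside H3K4me1 as well. The SOX6 midpoint lay a median of 39.5 bp from the SOX9 midpoint at the 206, which is short against these gaps. At 201 of the 206 (97.6%) the SOX9 midpoint was inside H3K27ac, about the same share as the 97.8% of the other sites. Of the 206, 79.1% were in the highest quartile of SOX9 score, against 41.0% of the other sites. SOX9-only peaks in the highest quartile had 94.4% (88.9% to 97.3%) of 125 midpoints inside H3K4me1, an interval that overlaps that of the sites. Their scores reached 818 and their median width was 593 bp, while scores of the sites reached 3100, so neither score nor width was matched. Shared promoter-type sites stayed between 76.1% and 79.1% in all 4 quartiles.

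**Figure D3:**
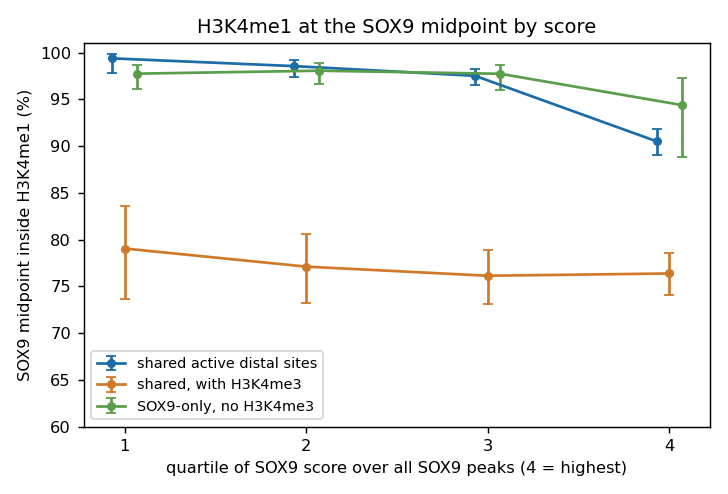
Share of SOX9 midpoints inside an H3K4me1 interval (vertical axis, %, starting at 60) by quartile of SOX9 score over the whole SOX9 list (horizontal axis), with Wilson 95% intervals, for the sites, shared promoter-type sites and SOX9-only peaks. The sites have 99.4% in the first quartile and 90.5% in the fourth, and shared promoter-type sites lie between 76.1% and 79.1% throughout.

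Most sites lay far from the nearest H3K4me3 interval, but the rule itself sets no distance. The median gap was 24587 bp (23336 to 25900 bp), with quartiles of 8876 and 64145 bp. Between peaks at or above the median score of each list it was 54697 bp, with fewer H3K4me3 intervals left. The gap in the deposited lists exceeded 50 kb at 1233 sites and was 5 kb or less at 648. At 199 sites it was 1 kb or less, and at 288 the H3K27ac interval under the site also overlapped H3K4me3. The median gap of SOX9-only peaks was 21642 bp (19600 to 23979 bp). Transcription start sites on rn5 were not used here, so a site without H3K4me3 can still lie near the start of a gene.

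The site nearest to H3K4me3 was on chromosome 18 from 28952922 to 28953190, with a gap of 6 bp. A site on chromosome 1 from 57679267 to 57679643 followed with 7 bp, and a site on chromosome 18 from 31471488 to 31471832 with 11 bp. The farthest was on chromosome 2 from 111231376 to 111231710, 1618032 bp from H3K4me3, with scores of 74.7 for SOX9 and 76.3 for SOX6. Next were chromosome 17 from 42435734 to 42436735, with 1390780 bp, and chromosome 9 from 21016439 to 21017240, with 1100533 bp. Their SOX9 peaks stood at percentiles 40.1, 82.8 and 72.8, and the last had another site 3319 bp away.

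Sites were mostly single within their acetylated interval. The 4007 sites lay in 3867 H3K27ac intervals, of which 3680 held 1 site, 169 held 2, 15 held 3, 2 held 4 and 1 held 5. The nearest other site was a median of 66492 bp away (61153 to 71898 bp). It was within the distance over which acetylated intervals are joined into large regions here, a fixed length between 12 and 13 kb, at 991 sites, or 24.7%, and within 1 kb at 217. Joined over that distance, the sites formed 3470 groups, with 3016 single sites and 12 groups of 4 or more. Any other SOX9 peak lay within the joining distance of 43.9% of sites (42.3% to 45.4%), of 49.5% of shared promoter-type sites, of 44.4% of SOX9-only peaks and of 38.6% of all SOX9 peaks.

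**Figure D4:**
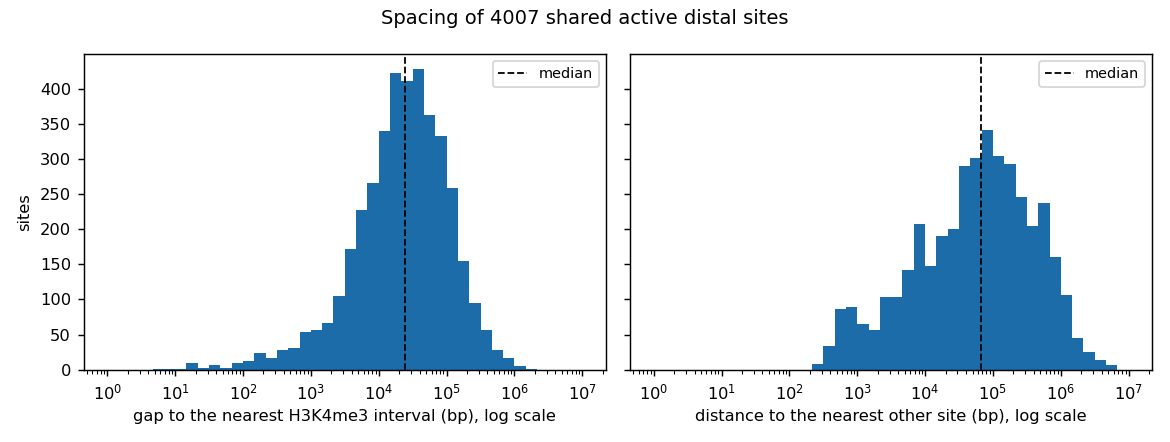
Number of sites (vertical axis) by gap to the nearest H3K4me3 interval (left) and by distance between midpoints to the nearest other site (right), in bp on a log scale, with the median as a dashed line. The gap to H3K4me3 centres on 24587 bp with a long tail below 1 kb (199 sites), and the spacing of sites centres on 66492 bp with a smaller rise below 1 kb (217 sites).

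The H3K27ac interval with the most sites was on chromosome 10 from 74128640 to 74145513. It was 16.9 kb long and held 5 sites, with 6 SOX9 and 9 SOX6 peaks and 2 H3K4me3 intervals. An interval on chromosome 2 from 234881741 to 234895245 held 4 sites in 13.5 kb, and here all 4 of its SOX9 peaks were sites and no H3K4me3 was called. The same was true on chromosome 14 from 91829168 to 91854059, with 4 sites in 24.9 kb. The other 2 of the first 5 held 3 sites each, on chromosome 10 from 109001499 to 109019477 and on chromosome 3 from 17091725 to 17096717. The latter was only 4.99 kb long, with 5 SOX9 and 4 SOX6 peaks. All 5 intervals had an H3K27ac score of 3100 and belonged to large acetylated regions.

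Large acetylated regions held a share of the sites about equal to their share of acetylated sequence. H3K27ac intervals were joined over gaps of up to the same joining distance and ranked by the length they cover, which placed 1019 of 22284 joined regions above the point where the ranked curve steepens (top-ranked). These held 1137 sites, or 28.4% (27.001% to 29.8%), against 21.7% of all SOX9 peaks, 34.7% (33.0% to 36.5%) of shared promoter-type sites and 25.04% (23.1% to 27.1%) of SOX9-only peaks. They also held 29.4% of the H3K27ac-covered length, and all sites had to touch H3K27ac while other SOX9 peaks did not. Per 10 kb of H3K27ac-covered length there were 0.469 sites in top-ranked and 0.494 in other regions. At least 1 site was present in 617 of the 1019 top-ranked regions, and 3 or more in 122.

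H3K9me3, the mark that the rule did not use, was less frequent at the centre of the sites than at their flanks. The SOX9 midpoint lay inside H3K9me3 at 80 of 4007 sites (1.997%, 1.61% to 2.48%), against 2.29% of all SOX9 peaks. At 2 kb on either side the shares were 5.76% (5.08% to 6.53%) and 5.59% (4.92% to 6.35%), and at 5 kb 4.47% and 4.34%. All SOX9 peaks had the same order, with 4.08% and 3.87% at 2 kb and 3.75% and 3.82% at 5 kb, so a lower share at the midpoint is not particular to the sites. H3K9me3 intervals cover 1.56% of the length up to the last peak of each chromosome. At 1091 sites (27.2%) an H3K9me3 interval lay within 5 kb of the midpoint but not on it. This held for 22.03% of all SOX9 peaks, 29.2% of shared promoter-type sites and 19.9% of SOX9-only peaks.

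The same measure gave a different shape in SOX9-only peaks. There 3.61% (2.84% to 4.58%) of midpoints were inside H3K9me3, and 3.78% and 3.44% of positions at 2 kb. The difference of the sites from SOX9-only peaks was -1.61 percentage points (-2.66 to -0.703) at the midpoint, and the sites were higher by 1.99 points (0.783 to 3.09) and 2.15 points (0.984 to 3.22) at 2 kb. Shared promoter-type sites were lower still at the midpoint, at 0.712%, with 5.02% and 4.92% at 2 kb. SOX9-only peaks have lower SOX9 scores. Within each quartile of the SOX9 list every difference of the sites from SOX9-only peaks, at the midpoint and 2 kb, had an interval including 0. At the midpoint the lowest quartile had 2.41% of sites and 4.48% of SOX9-only peaks. The second had 2.57% and 3.53%, and the third 2.07% and 3.48%. Only in the highest was the order reversed, with 1.63% of 1720 sites and 0.800% (1 of 125) of SOX9-only peaks.

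Positions 2 kb from the midpoint were inside H3K27ac more often where they were inside H3K9me3 than where they were not. Of the positions 2 kb from the midpoint that were inside H3K9me3, 54.5% (48.1% to 60.8%) on the left and 58.9% (52.4% to 65.2%) on the right were also inside H3K27ac. For positions outside H3K9me3 the shares were 35.1% and 33.9%. H3K4me1 did not show this order on both sides, with 34.6% and 40.2% inside H3K9me3 and 36.1% and 34.2% outside it. At the midpoint itself, where the rule asks for H3K27ac close by, 96.25% of positions inside H3K9me3 and 97.9% outside it were inside H3K27ac. These shares were pooled over chromosomes and were not taken for the other groups of SOX9 peaks, so they are not shown to be particular to the sites.

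By overlap, 139 sites met an H3K9me3 interval, which is 3.47% (2.95% to 4.08%), close to the 3.31% of all SOX9 peaks. It was 2.28% when only the higher-scoring peaks of every list, from its median upward, were kept. That setting also leaves fewer H3K9me3 intervals to meet, and the share over all SOX9 peaks was not taken under it. In the deposited lists shared promoter-type sites had 2.20%, and the sites were higher by 1.26 percentage points (0.471 to 2.04). SOX9-only peaks had 4.46%, a difference of -0.987 points (-2.17 to 0.0740), whose interval includes 0. The 139 sites resembled the others in the factors, with SOX9 medians at percentiles 70.1 and 70.7 and SOX6 medians at 73.0 and 73.2. Their H3K9me3 intervals had a median width of 897 bp, against 701 bp over that list. A wider interval is more likely to meet a site, and width was not matched.

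Sites with H3K9me3 were concentrated on a few chromosomes. Chromosome 16 had 14 of 142 sites with H3K9me3 (9.86%), chromosome 7 had 23 of 259 (8.88%), chromosome 9 had 20 of 235 (8.51%) and chromosome 4 had 22 of 352 (6.25%). Chromosome 1, with the most sites, had 1 of 374 (0.267%, 0.0472% to 1.499%). Chromosome 12 had the densest H3K9me3, with 76.3 intervals per Mb, and 1 of 85 sites overlapped it.

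The input libraries differed between chromosomes in the same places. Input reads without a mismatch per Mb, relative to the median chromosome and averaged over the 4 inputs, were highest on chromosome 16 (2.05), followed by chromosomes 9 (2.03), 7 (1.91) and 11 (1.63). On chromosome 4 the value was 1.21 and on chromosome 1 it was 0.9998. On the 4 chromosomes at 1.5 or above, 7.64% (5.997% to 9.70%) of 798 sites overlapped H3K9me3, and on the other 17 chromosomes 2.43% (1.95% to 3.02%) of 3209 sites did. Over all SOX9 peaks the shares were 6.08% and 2.54%, and H3K9me3 intervals themselves numbered 30.6 and 15.8 per Mb, so the pattern is one of the whole list. The part of input depth in these shares was not tested. Chromosome 11 was an exception in this set, with 4 of 162 sites (2.47%).

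The shape around the midpoint was present in both sets of chromosomes. On the 4 chromosomes of high input the sites had H3K9me3 at 4.89% of midpoints and at 10.03% and 11.3% of positions 2 kb away. On the others the values were 1.28% at the midpoint and 4.71% and 4.18% at 2 kb. An H3K9me3 interval within 5 kb but not on the midpoint was found at 39.0% of sites on the chromosomes of high input and 24.3% on the others. Over all SOX9 peaks these shares were 30.1% and 19.8%. The difference from shared promoter-type sites by overlap was 3.07 points (0.746 to 5.46) on the chromosomes of high input and 1.16 points (0.408 to 1.87) on the others. SOX9-only peaks overlapped H3K9me3 at 11.1% and 2.81%, and the intervals of both differences from the sites included 0.

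The sites were spread over all 21 chromosomes, with 374 on chromosome 1 and 36 on X. Per Mb they ranged from 0.233 on X and 0.658 on chromosome 20 to 1.93 on chromosome 9 and 2.26 on chromosome 10. Input was also low on X (0.595) and chromosome 20 (0.712), but chromosome 10 had the highest density with an input of 1.31. As a share of the SOX9 peaks of a chromosome, sites ranged from 19.2% (14.3% to 25.2%) on chromosome 20 to 33.6% (29.4% to 38.1%) on chromosome 14. Chromosomes 7 and 16, with much input, were at 22.04% and 23.6%, and chromosomes 9 and 11 at 25.7% and 29.6%.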

How the data were processed

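ChIP-seq libraries of SOX9, SOX6 and 4 histone marks (1 library each) and 4 inputs were analysed. Per the submitters' processing notes, CASAVA 1.8 and the rat build rn5 were used, and the peak names carry the name MACS; settings, the input set against each list and the aligner are not stated in the labels or file headers. The authors deposited a score per peak, used only within its list. They also deposited raw read counts per chromosome for the inputs, per the file headers; the read depth of the immunoprecipitated libraries was not used here.

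Intervals were read as counted from 0 and printed from 1. An overlap is at least 1 bp, a midpoint the centre of an interval. Ranks are mid-ranks within a list. No significance test was run, since sites of 1 library are not replicates. Chromosome length was taken as the last peak end over the 6 lists. Interval functions were tested on simulated lists (Python 3.11.15, numpy 2.4.6, scipy 1.17.1). The members, lists and comparisons were chosen with earlier results of these data known. Named sites are the 10 with the highest lower percentile of both factors, the 5 H3K27ac intervals with most sites, the 5 sites at each side of the overlap limit, and the 3 nearest to and farthest from H3K4me3. No site was assigned to a gene. A genome sequence of rn5 was not used here. Alternatives are another minimum overlap, higher scores, SOX9 peaks narrowed to 400 bp, H3K4me3 kept 5 kb away, SOX6 peaks as sites and, added after seeing the data, fewer chromosomes.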

Additional observations from a re-analysis of the deposited data

How the results depend on the processing

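Each of 7 values was recomputed under 5 alternatives, and under 1 more chosen after seeing the data. Of the 42 values, 29 stayed inside the main counting interval, or within 1.5 times for the number of sites, which ranged from 3209 to 4074 around 4007. The median distance between midpoints ranged from 46 to 49 bp. With an overlap of at least 0.5 of the narrower interval, the share of midpoints inside H3K4me1 was 99.3%, the share with H3K9me3 2.33% and the median gap to H3K4me3 22815 bp. Between peaks at or above the median score of each list these were 88.8%, 2.28% and 54697 bp. Fewer H3K9me3 intervals were then left to meet and fewer H3K4me3 intervals to be near. At that setting 22.1% of sites had another within the joining distance. With SOX9 peaks narrowed to 400 bp, 2.78% met H3K9me3. With H3K4me3 kept 5 kb away, the median gap was 33376 bp by construction and 25.3% lay in top-ranked regions. With SOX6 peaks as the sites, 26.8% had another within the joining distance. Without chromosomes 7, 9, 11 and 16, 94.1% of midpoints were inside H3K4me1 and 2.43% of sites met H3K9me3. Unless stated, the cause was not tested. No paired analysis was possible because each antibody has 1 library and no test was made. Single libraries and called intervals without read signal limit every value, since chromatin below the calling threshold counts as unmarked.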
